A study of Mus musculus with 8 samples.

Results

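The 9 genes described here encode transcription factors that set regional identity along the gut: Gata4, Gata5, Gata6, Onecut2, Pdx1, Cdx1, Cdx2, Hnf4a and Hnf4g. They were chosen by name, as the probe sets that name each of these genes alone, out of 19938 genes measured. Each of the 9 was found with 1 probe set. The 8 Affymetrix arrays, which read transcripts by hybridization to probe sets, held RNA of epithelium taken from the small intestine 4 days after transfection in the living animal. The mice were males of the outbred stock ICR, aged 8 weeks. The siRNA arm held 3 arrays from intestine given an siRNA, a short duplex RNA that silences a matching transcript, against GFP as the control (siGFP), and 3 from intestine given siRNAs against YAP and TAZ (siYAP/TAZ). The shRNA arm held 1 array after a plasmid that makes a silencing hairpin RNA (shRNA) against LacZ (shLacZ) and 1 after plasmids for shRNAs against YAP and TAZ (shYAP/TAZ). YAP and TAZ, the latter encoded by Wwtr1, are the coactivators restrained by Hippo signalling. All 8 arrays thus came from transfected intestine, and no source used here gives the share of cells that took up the nucleic acid. The labels assign each control array to 1 knockdown array, which gives 3 siRNA pairs and 1 shRNA pair; they do not say that a pair shared an animal, litter or day. Whether arrays of a group came from separate mice, and from which stretch of the small intestine, is not given in the labels, so p-values reflect only how far these arrays scattered, which may be technical scatter.

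Along the gut these factors divide the epithelium into regions. GATA4 is made in duodenum and jejunum and falls away in the ileum, where the genes of bile acid uptake that it holds down are switched on. GATA6 and GATA5 belong to the same zinc finger family and are made more widely. ONECUT2 and PDX1 mark the duodenum, CDX2 and CDX1 are the homeobox factors that keep epithelium intestinal, and HNF4A with its paralogue HNF4G drives the genes of absorptive enterocytes.

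The values are log2 intensities after quantile normalization of the arrays. Neither target passed the test in the siRNA arm: the siYAP/TAZ minus siGFP log2 difference was -0.12 (SE 0.32) for Yap1 and -0.28 (SE 0.36) for Wwtr1 (limma, adjusted p = 1.00 for both), so the groups are called by their labels. Epithelial markers (Epcam, Cdh1, Krt8, Krt18, Krt20 and Vil1; 6 of 6 measured) had mean log2 levels of 10.96 to 11.76 on the 8 arrays. Some arrays stood apart across the labels. Principal component 1 took up 56.8% of the variance, with scores of 57.5 to 64.5 for siGFP 3, siYAP/TAZ 2 and siYAP/TAZ 3 and of -70.3 to -1.67 for the other 5. On these 3 arrays the 7 measured mitotic genes had means of 5.67 to 5.96, and on the other 5 of 7.91 to 8.79. In bulk epithelium, fewer cells of a type and less RNA per cell cannot be told apart.

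The promoters of 4 regional genes and of 2 members are shown because the results below turn on these genes, with the letters that GATA and CDX factors read marked where they occur. They are the 250 bases before the RefSeq start site in GRCm38.p6, written 5′ to 3′ on the strand of the gene. Capitals mark matches on either strand to the GATA letters AGATAA, where T may stand first and G last, or to the CDX letters TTTATG, where T may stand last. Lct encodes lactase and Gip an incretin hormone, both proximal; Fabp6, the ileal bile acid binding protein, and Slc10a2, the apical bile acid transporter, are ileal; Cdx2 and Hnf4a are members.
Lct, chr1:128328319-128328568, minus strand: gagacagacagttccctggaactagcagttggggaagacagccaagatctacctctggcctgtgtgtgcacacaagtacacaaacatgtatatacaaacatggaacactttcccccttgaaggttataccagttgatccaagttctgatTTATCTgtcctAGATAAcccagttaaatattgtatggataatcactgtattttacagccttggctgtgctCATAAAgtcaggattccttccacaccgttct
Gip, chr11:96024295-96024544, plus strand: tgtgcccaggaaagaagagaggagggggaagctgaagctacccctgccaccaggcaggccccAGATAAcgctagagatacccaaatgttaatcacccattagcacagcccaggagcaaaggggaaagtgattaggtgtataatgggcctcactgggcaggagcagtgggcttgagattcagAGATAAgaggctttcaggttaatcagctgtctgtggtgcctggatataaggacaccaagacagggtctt
Fabp6, chr11:43601563-43601812, minus strand: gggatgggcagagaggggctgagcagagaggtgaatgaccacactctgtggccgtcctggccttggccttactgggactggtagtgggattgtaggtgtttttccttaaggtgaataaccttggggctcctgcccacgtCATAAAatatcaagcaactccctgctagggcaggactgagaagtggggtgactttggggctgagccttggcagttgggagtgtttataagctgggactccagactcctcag
Slc10a2, chr8:5105288-5105537, minus strand: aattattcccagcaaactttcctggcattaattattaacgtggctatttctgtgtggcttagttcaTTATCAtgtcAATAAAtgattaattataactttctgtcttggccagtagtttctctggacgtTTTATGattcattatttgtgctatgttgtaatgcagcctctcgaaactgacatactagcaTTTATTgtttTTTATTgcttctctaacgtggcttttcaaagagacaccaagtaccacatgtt
Cdx2, chr5:147307250-147307499, minus strand: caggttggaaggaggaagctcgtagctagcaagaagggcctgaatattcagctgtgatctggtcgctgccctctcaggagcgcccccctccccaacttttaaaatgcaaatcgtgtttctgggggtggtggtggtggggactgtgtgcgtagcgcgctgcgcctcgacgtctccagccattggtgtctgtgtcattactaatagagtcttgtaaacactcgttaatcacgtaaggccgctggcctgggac
Hnf4a, the more upstream of its 2 starts, chr2:163506607-163506856, plus strand: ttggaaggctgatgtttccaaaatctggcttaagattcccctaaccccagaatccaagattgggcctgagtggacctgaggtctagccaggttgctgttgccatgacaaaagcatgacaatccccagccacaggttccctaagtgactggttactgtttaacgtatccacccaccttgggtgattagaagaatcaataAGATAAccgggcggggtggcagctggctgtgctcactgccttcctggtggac

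The Lct window held 2 GATA matches, the first beginning 101 bases and the second 90 bases before the start, and 1 CDX match 31 bases before it. In the Gip window there were 2 GATA matches, at 188 and 69 bases. The Fabp6 window held 1 CDX match and no GATA match, and the Slc10a2 window 1 GATA and 4 CDX matches. Of the member windows, Hnf4a had 1 GATA match, 52 bases before the start, while the second Hnf4a start and those of Cdx2, Gata5 and Pdx1 had none of either kind. A GATA match stood in 26.5% and a CDX match in 25.5% of 32851 promoter windows of the same length. The longer letters CAAAGTCCA, read by HNF4, stood in 0.384% of windows and in none of those searched here. The GATA and CDX letters do not overlap each other in the windows shown. A match describes the letters only. Of the 9 members, 4 had an entry in the RefSeq table; Gata4, Gata6, Onecut2, Cdx1 and Hnf4g had none.

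Onecut2, a cut homeobox factor of the duodenum, varied far more between arrays than any other member and did so across the labels. Its log2 intensity was 5.43, 8.46 and 6.24 on siGFP 1, 2 and 3 and 5.71, 5.98 and 8.87 on siYAP/TAZ 1, 2 and 3. It was 8.20 on shLacZ and 9.63 on shYAP/TAZ. Thus 4 arrays were high, siGFP 2, siYAP/TAZ 3 and both shRNA arrays, and the other 4 were low, with a gap of 1.96 and no value between 6.24 and 8.20. Each siRNA group held 1 high and 2 low arrays, and the groups overlapped. This division was read from the values and is no label. The lowest and highest arrays were 18.3-fold apart. On the 4 low arrays Onecut2 was dim. Its deposited intensities there were 44.2 (siGFP 1), 81.4 (siGFP 3), 48.7 (siYAP/TAZ 1) and 59.3 (siYAP/TAZ 2). Each lay below the median of its own array, and those medians were 80.4 to 91.3. The SD of Onecut2 over the 8 arrays, 1.64, was higher than or equal to that of 99.7% of all genes.

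Gata4, the zinc finger factor of duodenum and jejunum, was highest on the same 4 arrays, with smaller steps and another order within them. It read 8.12, 8.62 and 7.87 on the siGFP arrays, 8.42, 7.61 and 8.65 on the siYAP/TAZ arrays, 9.22 on shLacZ and 9.16 on shYAP/TAZ. The 4 arrays with the most Onecut2 signal were the 4 with the most Gata4 signal, although the step from siYAP/TAZ 1 to siGFP 2 was small. The largest Gata4 gap, 0.51, lay elsewhere. It parted the 6 siRNA arrays, at 7.61 to 8.65, from the 2 shRNA arrays, and so followed the arm. Among all genes, 0.702% had these same 4 arrays as their highest. Of the 8 members other than Onecut2, Gata4 did so and 7 did not. The range of Gata4 was 3.06-fold.

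Of 10 ileal genes, 4 ran the opposite way, with their lowest values on these 4 arrays: Fabp6, Slc10a2, Slc51a, a subunit of the basolateral bile acid exporter, and Pyy, a hormone of the distal gut. The other 6 did not: Nts, the gut peptide neurotensin, read 7.86 on siGFP 2 and 8.24 on siYAP/TAZ 3 against 6.52 and 6.33 on siYAP/TAZ 1 and 2. Fabp6 read 11.16, 4.24 and 10.45 on the siGFP arrays, 8.75, 11.93 and 4.40 on the siYAP/TAZ arrays, 4.33 on shLacZ and 4.27 on shYAP/TAZ. Slc10a2 read 8.56, 4.79 and 8.85, then 9.28, 9.22 and 4.55, and 4.55 and 6.53 in the same order of arrays. For both genes the 4 lowest arrays were the 4 highest for Onecut2 and Gata4, which held for 0.567% of all genes. Fgf15, the hormone that ileal bile acids induce, was high only on siGFP 3 (6.92) and siYAP/TAZ 2 (7.35) and lay at 4.49 to 5.64 on the other 6. Of 17 proximal genes, 3 had their highest values on the arrays with high Onecut2 (Fabp1, Apoa4 and Cd36). Cd36, a fatty acid transporter, lay at 9.43 to 10.72 on them and at 5.19 to 7.12 on the rest. Gip lay at 9.51 on siGFP 2 and 10.03 on siYAP/TAZ 3 but at 9.30 on siGFP 3, and Slc40a1, the iron exporter ferroportin, was highest on siGFP 1 (7.48) and siYAP/TAZ 2 (7.19), which were low for Onecut2.

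**Figure D1:**
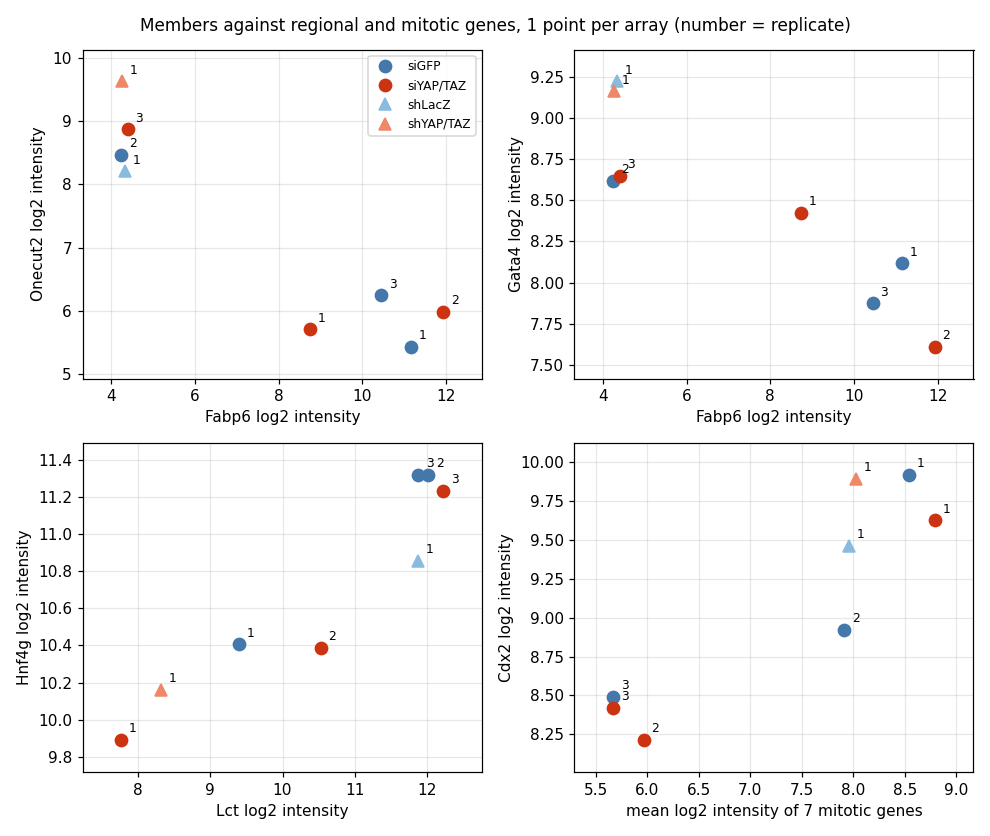
Log2 intensity of 4 members (y axes) against a regional gene or the mean of mitotic genes (x axes), 1 point per array, coloured by group and numbered by replicate. Onecut2 and Gata4 have their 4 highest values where Fabp6 lies at 4.24 to 4.40. The largest Gata4 gap, however, parts the 2 shRNA arrays from the 6 siRNA arrays. Hnf4g is high where Lct is high, and Cdx2 is lowest on the 3 arrays with the lowest mitotic genes.

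The relation of each member to the regional genes was tested over the 8 arrays with the means of 17 proximal and of 10 ileal genes, lists that hold no member. Onecut2 fell into separate low and high arrays, so no correlation with these means is given for it. Gata4 had a Pearson r of -0.84 with the ileal mean (exact two-sided permutation p = 0.0120, adjusted p = 0.192 over 16 relations). Its Spearman rho was -0.76 (exact permutation p = 0.0368, adjusted p = 0.432), and r was -0.93 without the 2 arrays farthest from its median and -0.86 over the 6 siRNA arrays. Hnf4g had an r of 0.75 with the proximal mean (exact permutation p = 0.0395, adjusted p = 0.244) and Gata6 one of -0.69 with the ileal mean (exact permutation p = 0.0457, adjusted p = 0.244). The rho values of these 2 relations were 0.67 (exact permutation p = 0.0831, adjusted p = 0.432) and -0.71 (exact permutation p = 0.0576, adjusted p = 0.432). Without the 2 farthest arrays r was 0.71 for Hnf4g and -0.49 for Gata6, and over the 6 siRNA arrays it was -0.50 for Gata6. Hnf4g fell into separate clusters within the siRNA arm, where no r is given. None of the 16 relations passed after adjustment, 3 had an unadjusted p under 0.05, and the arrays share intestine of unstated origin.

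Gata6 and Gata5, the wider GATA factors, moved less. Gata6 read 9.86, 10.08 and 10.19 on the siGFP arrays, 9.87, 9.31 and 10.22 on the siYAP/TAZ arrays, 10.27 on shLacZ and 10.59 on shYAP/TAZ. The lowest Gata6 array, siYAP/TAZ 2, was also the lowest for Gata4 and the highest for Fabp6. Gata5 read 9.83, 9.36 and 9.74 on the siGFP arrays, 8.71, 9.23 and 9.70 on the siYAP/TAZ arrays, 10.03 on shLacZ and 9.51 on shYAP/TAZ. Its lowest array was siYAP/TAZ 1, and the siRNA groups overlapped through siYAP/TAZ 3. GATA factors also mark mesothelium, the lining of the outer gut wall; its markers (Msln, Upk3b, Upk1b, Lrrn4 and Wt1, 5 of 5 measured) had means of 6.19 to 6.98 on siGFP and 6.10 to 6.63 on siYAP/TAZ arrays. Mesothelial means were highest on siGFP 3 and lowest on shYAP/TAZ, where Gata6 was highest; their part in the GATA values was not tested.

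Pdx1, the factor of duodenum and pancreas, was dim, with deposited intensities of 43.9 to 89.2, where the lowest value of any probe set was 16. It read 6.10, 5.65 and 5.94 on the siGFP arrays, 6.06, 5.60 and 6.23 on the siYAP/TAZ arrays, 6.28 on shLacZ and 6.31 on shYAP/TAZ. No array was set apart: the range was 1.63-fold, and siGFP 2, high for Onecut2, was next to lowest for Pdx1. Near the lowest intensities a log2 difference understates a change. Pancreatic acinar markers (6 of 7 measured; Pnlip was not) had means of 6.44 to 6.67 on siGFP and 6.25 to 6.61 on siYAP/TAZ arrays.

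The caudal homeobox factors followed another order. Cdx2 read 9.92, 8.92 and 8.49 on the siGFP arrays, 9.63, 8.21 and 8.42 on the siYAP/TAZ arrays, 9.46 on shLacZ and 9.89 on shYAP/TAZ. Its 3 lowest arrays, siYAP/TAZ 2, siYAP/TAZ 3 and siGFP 3, were the 3 with few mitotic transcripts. The same 3 arrays, in any order, were the lowest for 17.7% of all genes. The largest Cdx2 gap, 0.54, fell at another place. It set siGFP 1, siYAP/TAZ 1 and both shRNA arrays (9.46 to 9.92) above the other 4 (8.21 to 8.92), siGFP 2 among them. The homeobox gene Hoxa10 divided the arrays the same way, at 4.84 to 5.18 on the arrays with high Cdx2 and 7.04 to 7.29 on the other 4. The arrays with high Cdx2 are also listed first in the series, and whether that order plays a part was not tested. Cdx1, which is made most in crypts, read 8.03, 7.59 and 7.59 on the siGFP arrays, 8.20, 7.13 and 7.24 on the siYAP/TAZ arrays, 7.75 on shLacZ and 7.77 on shYAP/TAZ. It was lowest on siYAP/TAZ 2 and 3 and highest on siYAP/TAZ 1, so the widest spread lay within the siYAP/TAZ group. Crypt base stem cell markers (Lgr5, Olfm4, Ascl2, Smoc2, Rgmb and Slc12a2, 6 of 6 measured) had means of 6.46 to 9.05 on siGFP and 6.11 to 7.77 on siYAP/TAZ arrays, and mitotic genes means of 5.67 to 8.54 and 5.67 to 8.79. Both lists were low on the 3 arrays with low Cdx2, and their part in the Cdx values was not tested. Over the 8 arrays Cdx1 and Cdx2 had a Pearson r of 0.87 with each other, a description over arrays that share those same differences.

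Hnf4g, the paralogue of Hnf4a in differentiated enterocytes, parted the arrays in yet another way. It read 10.41, 11.32 and 11.32 on the siGFP arrays, 9.89, 10.39 and 11.24 on the siYAP/TAZ arrays, 10.86 on shLacZ and 10.16 on shYAP/TAZ. Its 4 highest arrays, siGFP 2, siGFP 3, siYAP/TAZ 3 and shLacZ, were also the 4 highest for Lct, the brush border lactase, in another order within them. The same 4 arrays, in any order, were the highest for 1.76% of all genes. Lct lay at 11.86 to 12.22 on these arrays and at 7.78 to 10.53 on the others. Hnf4a read 11.52, 10.93 and 11.32 on the siGFP arrays, 10.75, 10.74 and 11.13 on the siYAP/TAZ arrays, 11.15 on shLacZ and 11.63 on shYAP/TAZ. The range of Hnf4a was 1.85-fold, and siYAP/TAZ 1 and 2 were its lowest arrays, with siYAP/TAZ 3 above siGFP 2. Hnf4a and Hnf4g had an r of 0.04 with each other over the 8 arrays, so the paralogues did not share an order. The Hnf4a probe set is a single value and does not separate transcripts from the 2 starts.

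**Figure D2:**
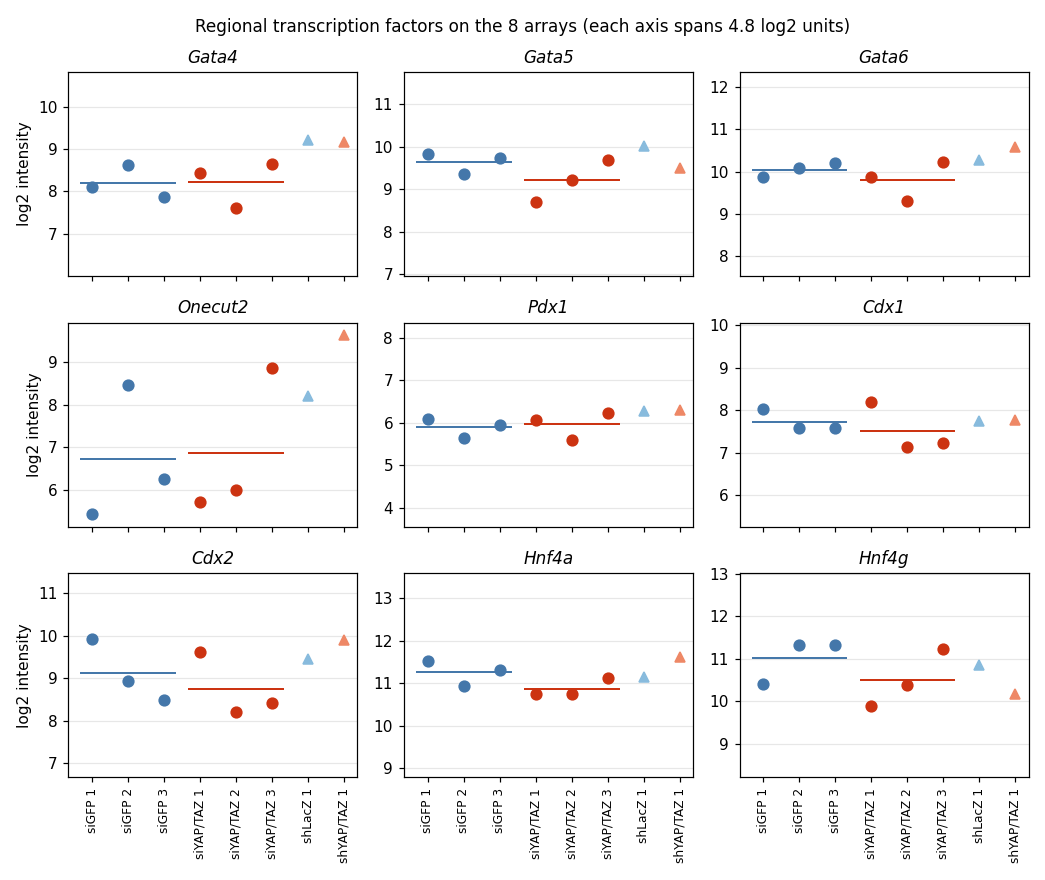
Log2 intensity (y axis) of the 9 members on each of the 8 arrays (x axis), coloured by group, with bars at the means of the siGFP and siYAP/TAZ arrays (n = 3 each) and every axis spanning the same width. Onecut2 ranges from 5.43 to 9.63 across the groups, while Pdx1 and Hnf4a stay within 0.71 and 0.89.

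In the siRNA arm no member differed between siYAP/TAZ and siGFP beyond the spread between arrays. With limma 0 of 9 members passed an adjusted p of 0.05, as did 0 of 19938 genes (0%); at an unadjusted p under 0.05 there were 0 members and 1.19% of all genes. The groups were fully separate for 0 members, beside 1.6% of all genes higher and 2.99% lower (4.59% together). By group means, 6 of the 9 members were lower and 3 higher; their median was -0.24 on the log2 scale, beside -0.02 over all genes. Hnf4g had the lowest of these differences. Its siGFP arrays averaged 11.02 ± 0.53 (SD, n = 3) and its siYAP/TAZ arrays 10.50 ± 0.68 (SD, n = 3). They were apart by -0.51 on the log2 scale (SE 0.43; interval at 95% confidence from -1.48 to 0.46; limma adjusted p = 1.00). Gata5 stood at -0.43 (SE 0.34), Hnf4a at -0.38 (SE 0.30) and Cdx2 at -0.36 (SE 0.49). Gata6 stood at -0.24 (SE 0.33), Cdx1 at -0.21 (SE 0.36), Pdx1 at 0.07 (SE 0.30) and Gata4 at 0.02 (SE 0.37).

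The interval was widest for Onecut2, whose arrays divided within each group. Onecut2 averaged 6.71 ± 1.57 (SD, n = 3) over the siGFP and 6.85 ± 1.75 (SD, n = 3) over the siYAP/TAZ arrays. They were apart by 0.14 on the log2 scale (SE 0.96; interval at 95% confidence from -2.03 to 2.31; limma adjusted p = 1.00). Single arrays decided its sign: the difference was 1.02 without siGFP 2, 0.71 without siYAP/TAZ 1 and 0.58 without siYAP/TAZ 2. It was -0.50 without siGFP 1, -0.09 without siGFP 3 and -0.87 without siYAP/TAZ 3. Hnf4g remained lower whichever array was left out, at -0.88 to -0.21, as did Hnf4a, at -0.54 to -0.25, and Gata5, at -0.67 to -0.18. Weighting the arrays by their quality brought these values to -0.10 for Hnf4g, -0.083 for Hnf4a and 0.041 for Gata5. Cdx1 ranged from -0.55 without siYAP/TAZ 1 to -0.015 without siYAP/TAZ 2. The intervals of Gata5, from -1.20 to 0.35, and of Hnf4a, from -1.06 to 0.30, included 0 as well.

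**Figure D3:**
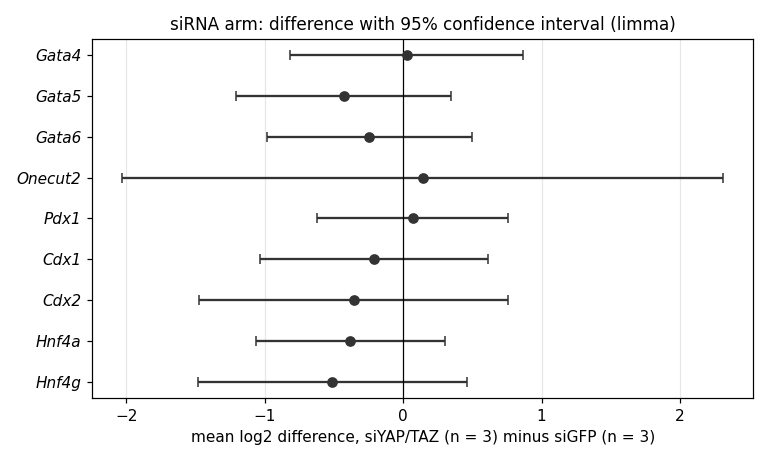
Mean log2 difference, siYAP/TAZ minus siGFP (x axis, n = 3 arrays each), for the 9 members (y axis), with limma's 95% confidence interval. All 9 intervals include 0, and that of Onecut2, from -2.03 to 2.31, is the widest.

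The 4 labelled pairs showed how far the members moved together. In siRNA pair 1, where both arrays were low for Onecut2 and high for Fabp6, Onecut2 differed by 0.28, Gata4 by 0.31, Gata5 by -1.12, Hnf4a by -0.77 and Hnf4g by -0.52 on the log2 scale. Pair 2 set a high Onecut2 control against a low Onecut2 array: Onecut2 differed by -2.48, Gata4 by -1.01 and Gata6 by -0.77, and all 9 members were lower. There Fabp6 differed by 7.69 and Slc10a2 by 4.43. In siRNA pair 3 the order was turned for these 2 ileal genes, at -6.05 for Fabp6 and -4.30 for Slc10a2, and for Onecut2 at 2.63 and Gata4 at 0.77. The members did not turn as a set. In pair 3, 5 of the 9 were lower and 4 higher, with a median of -0.03, and Cdx1 (-0.35) and Hnf4a (-0.18) stayed lower. These signs give the order of the arrays within each pair, and for Onecut2 pairs 2 and 3 largely offset each other in the mean of the siRNA arm.

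The shRNA pair, with 1 array per group and no replicate check, had both arrays high for Onecut2 and low for Fabp6. Onecut2 was 1.42 higher on shYAP/TAZ on the log2 scale, and of the 9 members it alone was past a 2-fold difference, beside 1.84% of all genes past it higher and 2.76% lower (4.59% together). Hnf4g was at -0.70, Gata5 at -0.52, Hnf4a at 0.48, Cdx2 at 0.43 and Gata6 at 0.31, and Gata4, Pdx1 and Cdx1 lay within 0.07 of 0. Among regional genes, Lct differed by -3.55 and Cubn, which takes up the vitamin B12 complex in the ileum, by -6.57, while Slc10a2 differed by 1.98 and Fabp6 by -0.07. Fabp6 on both arrays (4.33 and 4.27), Slc10a2 on shLacZ (4.55) and Cubn on shYAP/TAZ (4.37) lay near the lowest values. The lowest deposited intensity of any probe set was 16, so both arrays had little Fabp6 signal to compare. Markers of other cells differed in this pair too. Of 6 myeloid markers, 6 were higher on shYAP/TAZ, 3 of them past 2-fold, with a median of 1.21 and list means of 6.58 on shLacZ and 7.70 on shYAP/TAZ. Of 5 measured B cell markers, 5 were lower, with a median of -1.16. Their part in the Onecut2 value was not tested.

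Over all 4 pairs, 2 members lay lower on the labelled knockdown array every time, which neither target did. Hnf4g differed by -0.52, -0.93, -0.09 and -0.70 and Gata5 by -1.12, -0.13, -0.03 and -0.52, beside 8.95% of all genes lower in 4 of 4 pairs. No member was higher in all 4 pairs, beside 6.02% of genes. With arrays centred on the 75th percentile, Gata5 turned to 0.07 in siRNA pair 3, which left Hnf4g alone. Over the 8 arrays with the arm as a covariate, Hnf4g stood at -0.56 (SE 0.34; limma adjusted p = 1.00), Gata5 at -0.45 (SE 0.27), Onecut2 at 0.46 (SE 0.80) and Gata4 at 0.00 (SE 0.29). Of the 9 members 0 passed, as did 0% of all genes (2.68% at an unadjusted p under 0.05). Hnf4a and Cdx2 were lower in all 3 siRNA pairs and higher in the shRNA pair, an arrangement seen in 3.91% of all genes. The difference between the arms was 0.86 (SE 0.60; limma adjusted p = 1.00) for Hnf4a and 0.79 (SE 0.98; limma adjusted p = 1.00) for Cdx2. That test assumes the lone shRNA arrays vary like the siRNA arrays, and it called 0 members and 0% of all genes (0.351% at an unadjusted p under 0.05).

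**Figure D4:**
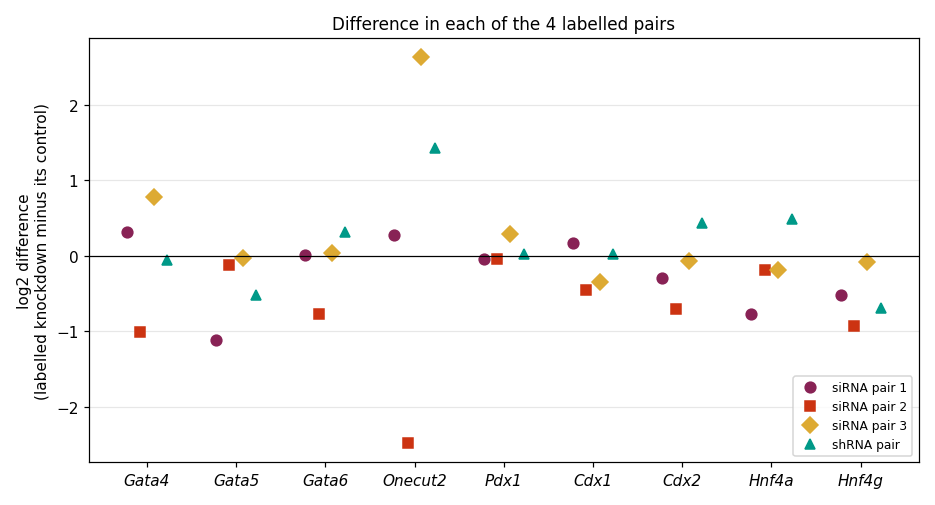
Log2 difference of each labelled knockdown array from its control array (y axis) for the 9 members (x axis), 1 marker per pair. Onecut2 spans -2.48 to 2.63, and Hnf4g and Gata5 lie below 0 in all 4 pairs.

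The genes whose order over the 8 arrays was most like that of each member were named by the highest Pearson r among 12457 genes left after dim and unnamed genes were dropped. For Onecut2 they were Zfpm1, which encodes the GATA cofactor FOG1, Cd36 and Tor1a; no r is printed for it, since its arrays form separate low and high clusters. Zfpm1 read 7.11 to 7.29 on the 4 arrays with low Onecut2 and 8.45 to 9.27 on the 4 with high Onecut2. For Gata4 they were Bpnt1 (r = 0.98), Klrd1 (r = 0.98) and Slc35c2 (r = 0.96). For Gata5 they were Heatr5a (r = 0.98), Slc16a11 (r = 0.95) and Thra, a thyroid hormone receptor (r = 0.94), and for Gata6 Kat2b, a histone acetyltransferase (r = 0.97), Osbp (r = 0.94) and Slc12a3 (r = 0.94). Pdx1 was nearest to Septin3 (r = 0.96), Cela1 (r = 0.95), a pancreatic-type elastase, and Ap3b2 (r = 0.95). Genes with r above 0.9 numbered 19 for Gata4, 14 for Gata5, 9 for Gata6 and 17 for Pdx1. With 8 arrays and 12457 genes searched, r values this high can also arise between unrelated genes, and no test was made.

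The neighbours of the Cdx pair were many more. Cdx2 had 704 genes and Cdx1 394 genes with r above 0.9, led by Ly6g6f, Ldc1 and Idi1, an enzyme of isoprenoid synthesis (r = 0.99 each), and by Strn4, Fbxw2 (r = 0.99 each) and Slc25a24 (r = 0.98). Hnf4a was nearest to Ep300, a transcriptional coactivator, Fbrsl1 (r = 0.92 each) and Nf1 (r = 0.91), with 8 genes above 0.9. Hnf4g was nearest to Gal3st2c, Magi3 and Igsf23 (r = 0.97 each), with 70 genes above 0.9. Among the members other than Onecut2, the highest r beside the Cdx pair was 0.79 for Gata4 with Gata6, a description over arrays that differ as given above.

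Genes that the members are known to switch on did not pass in either direction in the siRNA arm (limma). Of 7 measured HNF4 target genes, 3 were higher and 4 lower by group means, their median was -0.24, and 0 passed; Fabp1, the liver-type fatty acid binding protein, stood at 1.3 (SE 1.40) and Apoc3, an apolipoprotein, at -0.57 (SE 0.66). Fabp1 had 5.28 on siGFP 1 and 8.79 to 11.65 on the other 7 arrays, so siGFP 1 stood apart from the rest. Of 7 CDX2 target genes, 2 were higher and 5 lower with a median of -0.31, and 0 passed; Mep1a, a brush border protease, stood at -0.71 (SE 0.57) and Alpi, intestinal alkaline phosphatase, at -0.62 (SE 0.41). Proximal genes had a median of 0.04 with 10 of 17 higher, and ileal genes one of -0.26 with 8 of 10 lower, led by Cubn at -2.85 (SE 0.99). Of 17 other epithelial transcription factors measured, 12 were lower and 5 higher with a median of -0.16, and 0 passed. Vdr, the vitamin D receptor, stood at -1.17 (SE 0.46; limma adjusted p = 1.00) and Nr5a2, an orphan nuclear receptor of crypts, at -0.89 (SE 0.34; limma adjusted p = 1.00), each lower in 4 of 4 pairs.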

How the data were processed

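Gene expression was measured on 8 arrays, grouped by their titles. Biotin labelling followed the Affymetrix protocol for whole transcripts, per the labels' protocols. The authors deposited a linear intensity for each probe set. How they corrected background, summarised and scaled is stated in none of the sources used here; no value lay below 16. They were put on the log2 scale and quantile normalized, because array medians differed by up to 0.32. Of 28853 probe sets, 21789 named 1 gene, with 19938 genes after taking the brightest probe set of each. Symbols came from the platform annotation, updated through a RefSeq table of GRCm38; promoter sequences came from RefSeq. Groups were compared with limma 3.58.1 in R 4.3.3, with Benjamini-Hochberg adjustment across all 19938 genes and calls at 0.05, tested on simulated data. Correlations used exact permutation in Python 3.11.15, left out where the largest gap between neighbouring arrays exceeded the range on either side. Members, lists and tests were chosen with earlier results of these data known. Named genes were the members, the targets, Lct, Slc40a1, Gip, Slc10a2, Fabp6 and Fgf15, up to 2 genes of each other list with the largest siRNA difference, and the 3 most alike genes of each member; Cubn, Slc51a, Pyy, Nts, Apoa4 and the array orders of Onecut2, Hnf4g and Cdx2 were chosen after their values were seen. For arrays, their number limits the precision. The labels name a control array for each knockdown array, without a shared animal or day, so the fits carry no block. Alternatives were other scalings, array weights, a replicate block and leaving out each array.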

Additional observations from a re-analysis of the deposited data

How the results depend on the processing

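In no setting tried was a member called by limma. The count over all genes in the siRNA arm went from 0 to 1 with a replicate block and lay between 0 and 13 with single arrays left out, the 13 without siYAP/TAZ 1; the 8-array fit went from 0 to 4 with the replicate block and to 265 with array weights; the difference between the arms called 0 to 3, the 3 also without siYAP/TAZ 1. Deviations of same-numbered siRNA arrays from their group means had r of 0.75, -0.13 and 0.57, beside 0.58 for siGFP 3 with siYAP/TAZ 2. The main fits carry no block because the labels state no shared animal or day. Under the replicate block Hnf4g in the 8-array fit stood at -0.56 (SE 0.21, limma adjusted p = 0.553). Members lower in all 4 pairs fell from 2 to 1 with arrays centred on the 75th percentile. Several signs turned, and the cause was not tested. In the siRNA arm, Gata4 was -0.035 and Pdx1 -0.0045 without normalization, and Gata5 0.041 with array weights. Single arrays left out gave -0.19 to 0.33 for Gata4, -0.87 to 1.02 for Onecut2, -0.79 to 0.047 for Cdx2, -0.066 to 0.25 for Pdx1 and -0.45 to 0.0024 for Gata6. In the 8-array fit Gata4 was -0.016 centred on the 75th percentile, -0.063 without normalization and -0.077 with array weights, which also gave 0.12 for Gata6, 0.038 for Cdx2 and 0.22 for Hnf4a. Leaving out single arrays there gave -0.15 to 0.22 for Gata4, -0.43 to 0.16 for Cdx2, -0.039 to 0.18 for Pdx1, -0.23 to 0.093 for Gata6 and -0.19 to 1.14 for Onecut2. For the difference between the arms, Pdx1 was 0.072 centred and 0.14 without normalization, and the ranges were -0.49 to 0.18 for Hnf4g, -0.34 to 0.16 for Gata5, -0.22 to 0.093 for Pdx1 and -0.39 to 0.12 for Gata4. Among the correlations, Gata5 with the ileal mean was 0.0092 without normalization, 0.15 in the 6 siRNA arrays alone and 0.18 without the 2 farthest arrays, and Gata5 with the proximal mean -0.23 without those 2. Hnf4a was -0.077 and -0.13 with the proximal and 0.33 and 0.60 with the ileal mean under the same 2 settings. Over the 6 siRNA arrays alone, Cdx2 was 0.21 with the ileal mean; Pdx1, like Hnf4g, fell into separate clusters there. With 3 arrays a group and residual SDs of a median of 0.42, the number of arrays limits what can be seen.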

Other observations

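Hox genes, which set position along the body axis, differed little between the siRNA groups: of 37 measured, 24 were higher and 13 lower in the mean of the siRNA arm, with a median log2 difference of 0.12 and 0 passing (limma). Hoxb13, a hindgut gene, stood at 0.57 and Hoxb2 at 0.48, and none of the 37 reached a 2-fold difference in the shRNA pair. Between single arrays they differed more: Hoxa10 lay at 4.84 to 5.18 on siGFP 1, siYAP/TAZ 1 and both shRNA arrays and at 7.04 to 7.29 on the other 4, and Hoxd1 had a range of 2.12. Markers of stomach had means of 6.24 to 6.77 and those of colon means of 6.78 to 7.22 on the 8 arrays. In the siRNA arm, Barx1 stood at 0.32 and Sox2 at 0.26 among stomach genes and Car4, a carbonic anhydrase, at 0.99 among colon genes. Of the blood GATA factors and GATA cofactors, 5 of 5 were higher in the mean with a median of 0.17 and 0 passing. Gata3, a T cell factor, stood at 0.52 and Zfpm1 at 0.24, but Gata2 at 0.0008 and Zfpm2 at 0.04 were hardly above 0. In the shRNA pair 2 of the 5 were higher, with a median of -0.08.

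Among other cells the isolate could hold, the 5 measured B cell markers had means of 5.02 to 5.78 on siGFP arrays, 5.0 to 8.5 on siYAP/TAZ arrays, 5.99 on shLacZ and 4.84 on shYAP/TAZ, with Cd22 at 1.94 and Ms4a1 at 1.87. The array with the highest B cell mean, siYAP/TAZ 2, was the lowest for Gata4, Gata6, Cdx1, Cdx2, Hnf4a and Pdx1. The part of those cells in the member values was not tested. T cell markers had means of 5.40 to 6.61, with Cd2 at 0.59 and Cd3e at 0.48, and myeloid markers means of 6.08 to 7.70, with Lyz2 at -0.67 and Adgre1 at -0.27 in the siRNA arm; in the shRNA pair 6 of 6 were higher, Adgre1 by 1.43. Fibroblast markers had means of 6.20 to 7.26 (Dcn -0.64, Col3a1 -0.39), smooth muscle markers of 6.30 to 6.89 (Myh11 0.39, Cnn1 0.27) and endothelial markers of 5.48 to 6.38 (Pecam1 0.85, Emcn -0.44). Enteroendocrine markers had means of 5.58 to 6.90 (Pcsk1 0.68, Chgb -0.50), islet markers of 6.33 to 7.14 (Mafa 0.33, Ins2 0.32) and enterocyte markers of 10.72 to 11.84 (Slc2a2 1.13).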
